A study of Mus musculus with 9 samples.

Results

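Cells commit to mitochondrial apoptosis according to the balance between the proteins of the BCL2 family, and 10 genes of this family were followed in 4T1 mammary tumors. They were chosen by name from the gene tables: the survival genes Bcl2, Bcl2l1 and Mcl1, the effector genes Bax and Bak1, and the BH3-only genes Bcl2l11, Bbc3, Bid, Bad and Pmaip1. They make up 10 of the 22609 genes listed, and all 10 passed the filter on low counts that left 13366 genes for testing.

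In this pathway the survival proteins hold Bax and Bak1 in check at the outer mitochondrial membrane. The BH3-only proteins are made or activated after stress, such as growth factor withdrawal or DNA damage, and bind the survival proteins, and some of them also activate Bax and Bak1 directly. Once active, Bax and Bak1 open pores through which cytochrome c leaves the mitochondrion, and the apoptosome and caspases follow. Mammary carcinoma cells often rely on Mcl1 or on Bcl-xL, the long product of Bcl2l1, and survival genes of this family are known targets of STAT3, a factor downstream of the leukemia inhibitory factor receptor (LIFR).

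RNA was sequenced from tumors of 4T1 cells, a mouse line of triple-negative mammary carcinoma, grown from 500000 cells injected per mouse in the mammary fat pad, with BALB/c as the host strain. The LFD group had eaten a diet with 10% of its calories from fat for 6 weeks before injection and afterwards, and the HFD group a diet with 60%, and both received vehicle (0.3% hydroxy propyl cellulose). The HFD + EC359 group ate the 60% fat diet and was given EC359, a small-molecule LIFR inhibitor, at 5 mg/kg intraperitoneally on 5 days per week once tumors were established. HFD against LFD asks what the diet changed in the tumors, and HFD + EC359 against HFD what the inhibitor changed on that diet. Each group had 3 libraries, the HFD libraries served in both the diet and the drug comparison, and the age and sex of the mice are not given in the sources used here. All tumors came from 1 cell line, and nothing states that the libraries of a group came from separate mice, so the p-values measure only the spread between these libraries.

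The library totals ran from 5085357 to 9751201 counts, at which 3 counts, the limit that a count of 0 allows, equal 0.308 to 0.59 CPM (counts scaled to the library total) for counting error alone. LFD replicate 1 stood apart: between it and the other two LFD libraries the chi-square averaged over genes was 3.10 and 2.54, against 1.36 to 1.57 for all other pairs of libraries within a group. The libraries also differed by GC content, in the order of the groups. Genes with at most 45.8% GC, relative to those with at least 55.4%, were shifted by -0.54 to -0.32 on the log2 scale in the LFD libraries, by 0.10 to 0.16 in the HFD libraries, and by 0.25 to 0.30 in the HFD + EC359 libraries. This difference and the groups cannot be told apart by design, so changes are also given with the GC and length trend removed, that is, after fitting it within each library. Of the epithelial markers of the 4T1 line, Krt8 (405 to 611 CPM) and Krt18 (286 to 496 CPM) were high in every library, and Krt7 was near 0 at 0 to 9 counts. Epcam lay between 0.882 and 7.76 CPM, with means of 7.39, 1.37 and 5.05 CPM in LFD, HFD and HFD + EC359. Cdh1 had means of 28.4, 5.90 and 19.9 CPM in the same order.

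Mcl1 and Bcl2l1 held the highest levels of the family and were lower with the high-fat diet and lower again with EC359, whereas Bcl2 stayed within a narrow range. Mcl1 (mm9 chromosome 3, 95462643 to 95467101), a survival protein with a short life that must be made constantly, had 572, 473 and 489 CPM in the LFD libraries, 379, 359 and 356 CPM in the HFD libraries, and 337, 324 and 313 CPM in the HFD + EC359 libraries. The 3 groups did not overlap, and LFD replicate 1 was the highest of all. With HFD the log2 fold change of Mcl1 was -0.48 (standard error 0.0477 and, by the quasi-likelihood test of edgeR, adjusted p = 3.61e-10), a 1.40-fold lower level. With EC359 it fell by a further 0.17 (standard error 0.0476, adjusted p = 0.00827). Tumors are mixtures of cells, and fewer cells of a type and less RNA per cell cannot be told apart in such libraries.

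Bcl2l1 (mm9 chromosome 2, 152606404 to 152657418) followed the same order. It reached 264, 240 and 258 CPM in the LFD libraries, 173, 169 and 166 CPM in the HFD libraries, and 156, 151 and 152 CPM in the HFD + EC359 libraries, again without overlap between groups. Its log2 fold change was -0.58 with HFD (standard error 0.0438, adjusted p = 8.97e-13) and -0.15 with EC359 (standard error 0.044, adjusted p = 0.011). The gene count does not separate the long survival form Bcl-xL from the short form Bcl-xS, which promotes death.

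The fall of both genes with EC359 was small, a change of -9.77% for Bcl2l1 and -10.9% for Mcl1. Each was called in 17 of 19 fits across the settings tried, and the call was lost when either of 2 libraries was left out. Without HFD replicate 1 the values were -0.13 for Bcl2l1 (adjusted p = 0.0662) and -0.14 for Mcl1 (adjusted p = 0.0798), and without HFD + EC359 replicate 3 both were -0.14 (adjusted p = 0.0511 and 0.0654). The difference with the diet was called whichever library was left out, and without LFD replicate 1 it was -0.55 for Bcl2l1 and -0.40 for Mcl1. Removal of the GC and length trend left Mcl1 at -0.53 with HFD and -0.20 with EC359, and Bcl2l1 at -0.39 and -0.13, all 4 called.

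Bcl2 (mm9 chromosome 1, 108434756 to 108610867), the founding survival gene, showed 75.2, 70.6 and 74.5 CPM in the LFD libraries, 78.7, 79.2 and 77.6 CPM in the HFD libraries, and 75.4, 73.0 and 76.1 CPM in the HFD + EC359 libraries. The HFD libraries were the highest, by little. The log2 difference was 0.10 with HFD (95% interval -0.02 to 0.22) and -0.07 with EC359 (95% interval -0.18 to 0.04), and neither passed the test. With the GC and length trend removed the diet difference turned to -0.09.

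The sequences just before the start sites of the 2 survival genes that fell are shown because survival genes of this family are known STAT3 targets and the drug acts upstream of STAT3. They are RefSeq sequences on GRCm38.p6, the sense strand 5′ to 3′, 250 bases up to the base before the annotated start. For Bcl2l1 the most upstream of its 3 start sites was taken. No letters are in capitals, since neither the STAT letters TTCNNNGAA, nor the FOXO letters GTAAACA, nor the E-box CACGTG occur here on either strand.
Mcl1 (chr3:95658471-95658720, plus strand): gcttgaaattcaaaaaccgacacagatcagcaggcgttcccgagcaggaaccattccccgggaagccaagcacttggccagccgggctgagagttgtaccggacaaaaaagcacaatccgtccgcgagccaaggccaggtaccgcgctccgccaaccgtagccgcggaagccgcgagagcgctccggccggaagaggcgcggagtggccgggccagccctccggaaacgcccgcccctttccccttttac
Bcl2l1 (chr2:152831729-152831978, minus strand): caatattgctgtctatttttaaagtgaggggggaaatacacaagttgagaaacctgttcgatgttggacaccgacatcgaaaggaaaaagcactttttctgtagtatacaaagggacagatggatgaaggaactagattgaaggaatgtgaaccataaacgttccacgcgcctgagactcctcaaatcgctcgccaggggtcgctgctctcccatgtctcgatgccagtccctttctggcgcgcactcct
The STAT letters were in 0 of the 15 RefSeq windows (250 bases before to 50 after a start) of 9 members, and in 8.30% of all 32851 windows. GC box letters (GGGCGG, either strand) were in 10 of the 15, against 35.7% of all windows. These are letters in short windows, and nothing about binding by a factor follows from them.

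The 2 effector genes went in opposite directions with the high-fat diet and showed no called change with EC359. Bax (mm9 chromosome 7, 52717065 to 52722268), which moves from the cytosol into the membrane to form pores, was measured at 69.3, 57.9 and 65.0 CPM in the LFD libraries, 47.0, 43.8 and 38.4 CPM in the HFD libraries, and 45.4, 39.4 and 44.2 CPM in the HFD + EC359 libraries. Every LFD library lay above every library on the high-fat diet. Its log2 fold change with HFD was -0.56 (standard error 0.0837, adjusted p = 1.11e-06), and -0.31 once the GC and length trend was removed, still called. With EC359 the HFD level did not move measurably, at -0.003 with a 95% interval of -0.17 to 0.17.

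Bak1 (mm9 chromosome 17, 27156757 to 27165571), the effector that resides in the mitochondrial membrane, had 71.3, 67.4 and 70.1 CPM in the LFD libraries, 79.5, 83.1 and 79.0 CPM in the HFD libraries, and 76.8, 72.7 and 72.9 CPM in the HFD + EC359 libraries. The HFD libraries were above all others. It rose by 0.21 with HFD (standard error 0.0588, adjusted p = 0.00301), and by 0.43 with the trend removed. Its difference with EC359 was -0.12 (adjusted p = 0.101), with 3 of 3 libraries below every HFD library.

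**Figure D1:**
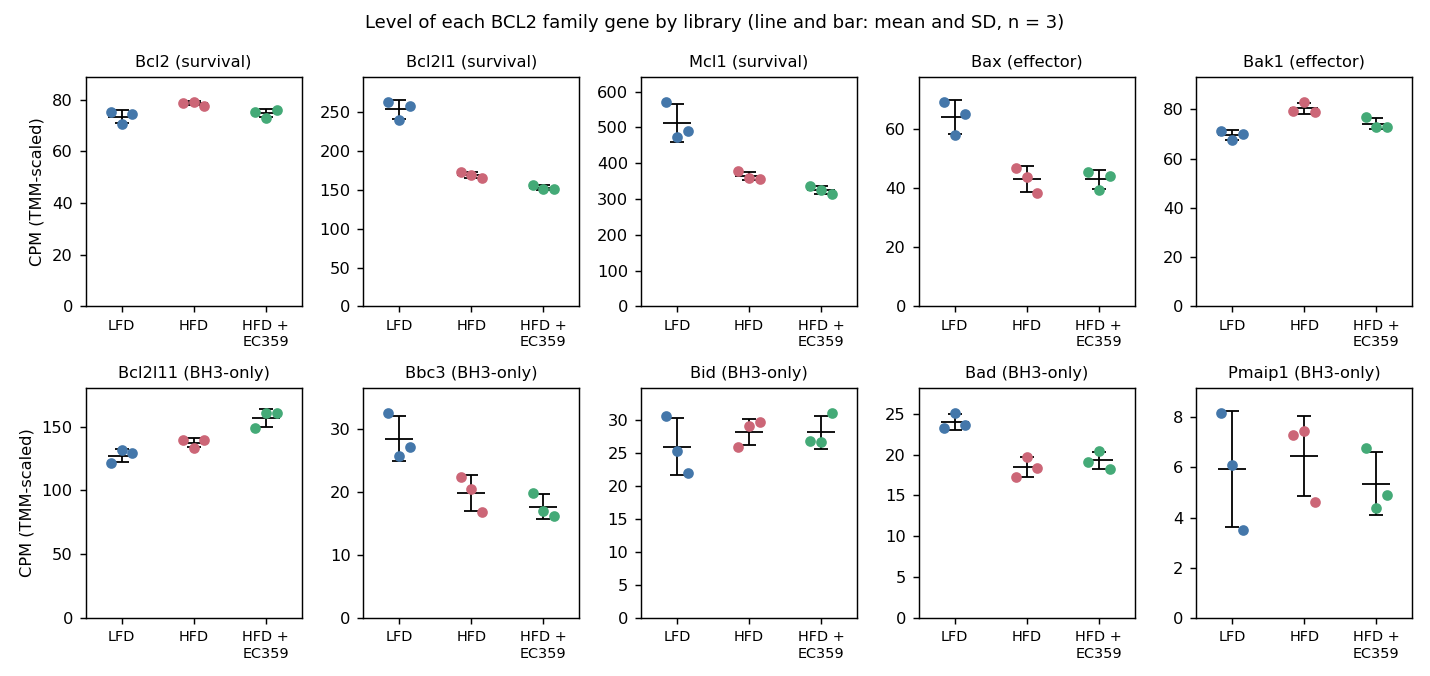
Level of each of the 10 genes in TMM-scaled CPM (y axis, from 0) in the 3 LFD, 3 HFD and 3 HFD + EC359 libraries (x axis). Points are libraries in the order of their replicate numbers, lines and bars are the mean and SD of 3. Mcl1 and Bcl2l1 step down from LFD to HFD to HFD + EC359, Bax, Bad and Bbc3 are lower in both high-fat groups, and Bcl2l11 is highest with EC359.

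Among the BH3-only genes, Bcl2l11 rose with EC359, Bbc3 and Bad fell with the high-fat diet, and Bid and Pmaip1 were not called in any comparison. Bcl2l11 (mm9 chromosome 2, 127951774 to 127988283) encodes Bim, which binds all main survival proteins and can activate Bax. It had 121, 131 and 129 CPM in the LFD libraries, 139, 133 and 140 CPM in the HFD libraries, and 149, 161 and 161 CPM in the HFD + EC359 libraries. The 3 groups did not overlap. With EC359 it rose by 0.19 on the log2 scale (standard error 0.0458, adjusted p = 0.00177), called in 19 of 19 fits across the settings tried, and 0.18 once the GC and length trend was removed. For HFD against LFD the value was 0.11 (adjusted p = 0.0697, 95% interval 0.006 to 0.21), and 0.0001 with the trend removed.

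Bbc3 (mm9 chromosome 7, 16894932 to 16903683) encodes Puma, a p53 target that binds every survival protein of the family. Its levels were 32.5, 25.7 and 27.1 CPM in the LFD libraries, 22.3, 20.4 and 16.7 CPM in the HFD libraries, and 19.9, 16.9 and 16.1 CPM in the HFD + EC359 libraries. LFD stood above both high-fat groups, which overlapped each other. With HFD the log2 fold change was -0.51 (standard error 0.116, adjusted p = 0.000477). Bbc3 has the highest GC content of the 10 genes, 64.2% of its exon bases, and with the trend removed the value was -0.19 (adjusted p = 0.166), so this call depends on that step. With EC359 it was -0.18 (adjusted p = 0.275).

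Bad (mm9 chromosome 19, 7016345 to 7026383), which joins growth factor signaling to Bcl-xL through its phosphorylation, had 23.3, 25.1 and 23.6 CPM in the LFD libraries, 17.3, 19.8 and 18.4 CPM in the HFD libraries, and 19.1, 20.4 and 18.3 CPM in the HFD + EC359 libraries. All LFD libraries were above all others. The log2 fold change was -0.38 with HFD (standard error 0.105, adjusted p = 0.00287) and 0.06 with EC359 (adjusted p = 0.717). Its GC content is 61.2%, and with the trend removed the diet value was -0.09 (adjusted p = 0.501), which ended the call. Bad overlaps Gpr137 on the other strand, and the counting used strand.

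Bid (mm9 chromosome 6, 120843137 to 120866838), which caspase-8 cleaves to carry death receptor signals to the mitochondrion, ranged over 22 to 30.7 CPM in the LFD libraries, 25.9 to 29.7 CPM with HFD, and 26.6 to 31.1 CPM with HFD + EC359. All groups overlapped, and the log2 differences were 0.13 with HFD (95% interval -0.09 to 0.35) and 0.002 with EC359 (95% interval -0.20 to 0.20). Pmaip1, the gene of Noxa, a partner of Mcl1, rested on 20 to 58 counts per library, or 3.52 to 8.17 CPM. Its LFD libraries alone spanned 8.17, 6.12 and 3.52 CPM. The 95% interval for HFD against LFD, -0.34 to 0.64, shows how little could be resolved at this depth.

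The sequences before the starts of Bcl2l11 and Bbc3 are shown because they were the only members whose windows held the FOXO letters GTAAACA, printed in capitals where they or their reverse complement occur. FOXO factors are known to raise Bcl2l11 and Bbc3 when growth factor signaling falls.
Bcl2l11 (chr2:128125788-128126037, plus strand): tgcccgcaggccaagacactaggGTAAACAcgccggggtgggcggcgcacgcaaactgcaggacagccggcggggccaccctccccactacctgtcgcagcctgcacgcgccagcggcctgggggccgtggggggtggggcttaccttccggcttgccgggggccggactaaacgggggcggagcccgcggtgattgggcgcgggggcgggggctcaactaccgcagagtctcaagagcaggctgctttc
Bbc3 (chr7:16310011-16310260, plus strand): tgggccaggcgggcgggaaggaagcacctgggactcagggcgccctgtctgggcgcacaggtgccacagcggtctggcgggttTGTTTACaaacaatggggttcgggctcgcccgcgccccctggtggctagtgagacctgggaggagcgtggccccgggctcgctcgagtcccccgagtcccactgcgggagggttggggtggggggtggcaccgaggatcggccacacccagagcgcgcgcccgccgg
The letters begin 227 bases before the more upstream RefSeq start of Bcl2l11, whose other window did not hold them. In Bbc3 they begin 167 bases before the second of 3 RefSeq starts. They were in 2 of the 15 windows of the members, against 3.65% of all windows. The E-box letters were in 2 of the 15 windows, those of 2 members, Bax and Bbc3, against 7.15% of all windows. Of the 2 genes with the FOXO letters, Bcl2l11 rose with EC359, and Bbc3 was at -0.18, or -0.04 once the trend with GC and length was taken out, without passing the test. The difference between both genes was not tested.

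For HFD against LFD, 1 member was called higher and 5 lower (adjusted p below 0.05), where 51.8% of all tested genes were called, 26% higher and 25.8% lower. The libraries of the 2 groups did not overlap for 8 of the 10 members, against 57.1% of all tested genes. The median log2 fold change of the members was -0.14, beside 0.007 over all tested genes. With the GC and length trend removed, 1 was called higher and 3 lower, and the share of all genes at that setting is not given here. For HFD + EC359 against HFD, 1 was called higher and 2 lower, against 26.6% of all genes (12.7% higher and 13.9% lower), 5 did not overlap against 41.3%, and the median was -0.09 beside 0.006. Counted in both directions, the members' share lies near that of all genes in each comparison. No member passed a fold change over 2 with an adjusted p under 0.01, the threshold of the study's methods, which 5.71% and 3.43% of all genes passed in the 2 comparisons. At an unadjusted p under 0.05, 7 and 4 members passed. The share of all genes at that limit was not counted, and it is at least the 51.8% and 26.6% called after adjustment.

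Set against the LFD group, the tumors on the high-fat diet with EC359 differed further from LFD in Bcl2l1, Mcl1 and Bcl2l11 than those on the high-fat diet alone. The log2 fold changes were -0.73 for Bcl2l1, -0.65 for Mcl1, -0.57 for Bax, -0.32 for Bad and -0.69 for Bbc3, all called lower, and 0.30 for Bcl2l11, called higher (adjusted p = 2.97e-06). In this comparison 58.3% of all tested genes were called (29.2% higher, 29.1% lower), 7 members did not overlap against 62.9% of genes, and 0 members passed the study's threshold, which 5.09% of genes did. Bak1 was at 0.09 (adjusted p = 0.177) and Bcl2 at 0.03 (adjusted p = 0.663). With the GC and length trend removed, Bcl2 was called lower at -0.17 and Bak1 higher at 0.33, Bax came to -0.32 and Bcl2l11 to 0.18 with their calls kept, while Bad (0.02) and Bbc3 (-0.22) were not called. This comparison shares its libraries with the other two.

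**Figure D2:**
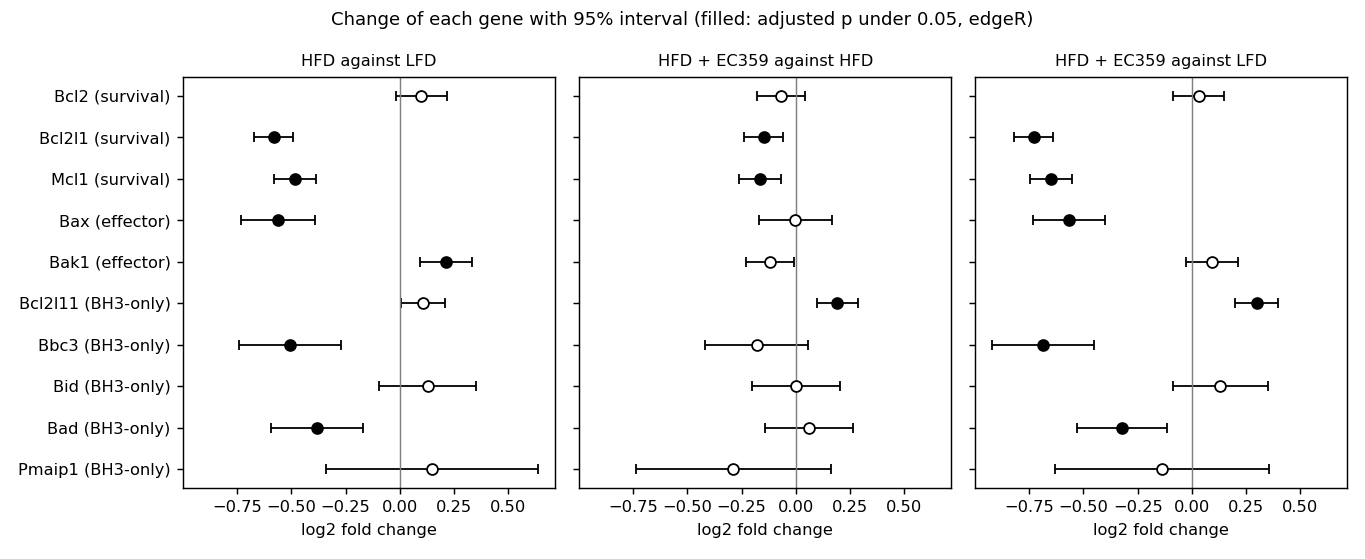
Log2 fold change of each gene (x axis) with its 95% interval in the 3 comparisons, one panel each, for the 10 genes (y axis). Filled points are called (adjusted p below 0.05, edgeR). Bcl2l1 and Mcl1 lie below 0 in all 3 panels, Bcl2l11 is above 0 with EC359, and the interval of Pmaip1 is the widest.

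The GC content of the members bears on how the diet values are read. When the tested genes were split into 10 bins by GC content, the median log2 fold change with HFD was 0.38 in the lowest bin (median 40.3% GC) and -0.28 in the highest (median 60.3% GC). The members that fell most with HFD have exons of 49.1% (Mcl1), 56.0% (Bcl2l1), 59.0% (Bax), 61.2% (Bad) and 64.2% (Bbc3) GC. Mcl1 and Bak1 moved against the trend of genes of their GC content, and removing the trend made both values larger. Bbc3 and Bad moved with it, and lost their calls. Bcl2 (46.4%), Bcl2l11 (48.0%) and Pmaip1 (41.7%), higher with HFD without passing the test, came to -0.09, 0.0001 and -0.16. In the EC359 comparison the trend was shallower, and the 3 called members kept their calls.

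**Figure D3:**
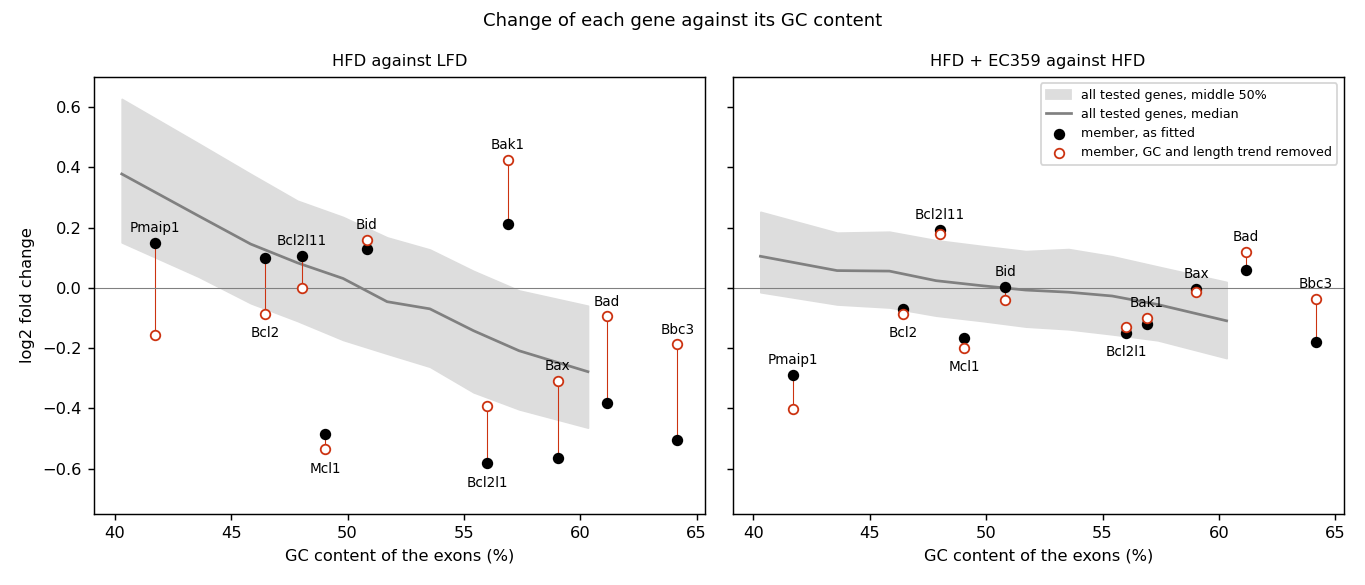
Log2 fold change (y axis) against the GC content of the exons (x axis, percent) with the diet (left) and with EC359 (right). The grey line and band are the median and middle 50% of all tested genes in 10 bins of GC content, black points the 10 genes as fitted, and open points the same genes after correction for GC content and length. Bad and Bbc3 move toward 0 in the left panel, and Mcl1 and Bak1 move away from it.

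Levels were compared between genes per kb of exon. In the LFD group Mcl1 came first with 147 ± 15.2 CPM per kb (SD, n = 3), followed by Bcl2l1 with 107 ± 5.2 and Bax with 73.7 ± 6.63. Bak1 had 34.8 ± 0.992 CPM per kb and Bcl2l11 25.2 ± 1.06. Bad, Bbc3 and Bid, from 16.5 to 13.7 CPM per kb, overlapped with their neighbors in this order, Bcl2 followed with 9.49 ± 0.322, and Pmaip1 was last with 2.24 ± 0.879. On this scale the first 5 genes kept the same order in all 3 groups. In both high-fat groups Bbc3 dropped from the seventh to the ninth place, at 10.0 and 8.92 CPM per kb, overlapping with Bcl2. Mcl1 remained the most abundant member at 105 ± 3.54 CPM per kb with HFD and 93.2 ± 3.44 with HFD + EC359.

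Ratios within a library set the survival genes against their partners, as a description without a test. The Mcl1 to Bcl2l11 log2 ratio per length was 2.77, 2.38 and 2.45 in the LFD libraries, 1.97, 1.96 and 1.88 in the HFD libraries, and 1.71, 1.54 and 1.5 in the HFD + EC359 libraries. The 3 groups did not overlap, and the group means differed by -0.59 with HFD and by a further -0.36 with EC359. With the GC and length trend removed these differences came to -0.54 and -0.38. On the linear scale of the group means, Mcl1 stood at 5.79, 3.83 and 3.00 times Bcl2l11. The Bcl2l1 to Bcl2l11 log2 ratio also stepped down without overlap, with means of 2.09, 1.39 and 1.05. Its differences were -0.69 with HFD and -0.34 with EC359, and -0.39 and -0.31 with the trend removed.

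The 2 effectors came closer in level with the high-fat diet. The Bak1 to Bax log2 ratio per length was -1.16, -0.98 and -1.09 in the LFD libraries and lay between -0.48 and -0.16 in the 6 libraries on the high-fat diet. The Bcl2 to Bax log2 ratio, often quoted as an index of survival, had means of -2.95 with LFD, -2.28 with HFD, and -2.35 with HFD + EC359. The difference with HFD was 0.67, of which Bcl2 contributed 0.10 and Bax the rest, and it was 0.22 with the GC and length trend removed. By contrast, the 3 survival genes together against all 5 BH3-only genes had a mean log2 ratio of 1.87 with LFD, 1.47 with HFD, and 1.25 with HFD + EC359. The 3 survival genes against the 2 effectors, Bax and Bak1, had means of 1.28, 1.05 and 0.95 in the same order. With the diet the Bcl2 to Bax ratio thus rose, while both ratios over all survival genes, which include Mcl1 and Bcl2l1, fell. For these summed ratios no value with the trend removed was computed.

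**Figure D4:**
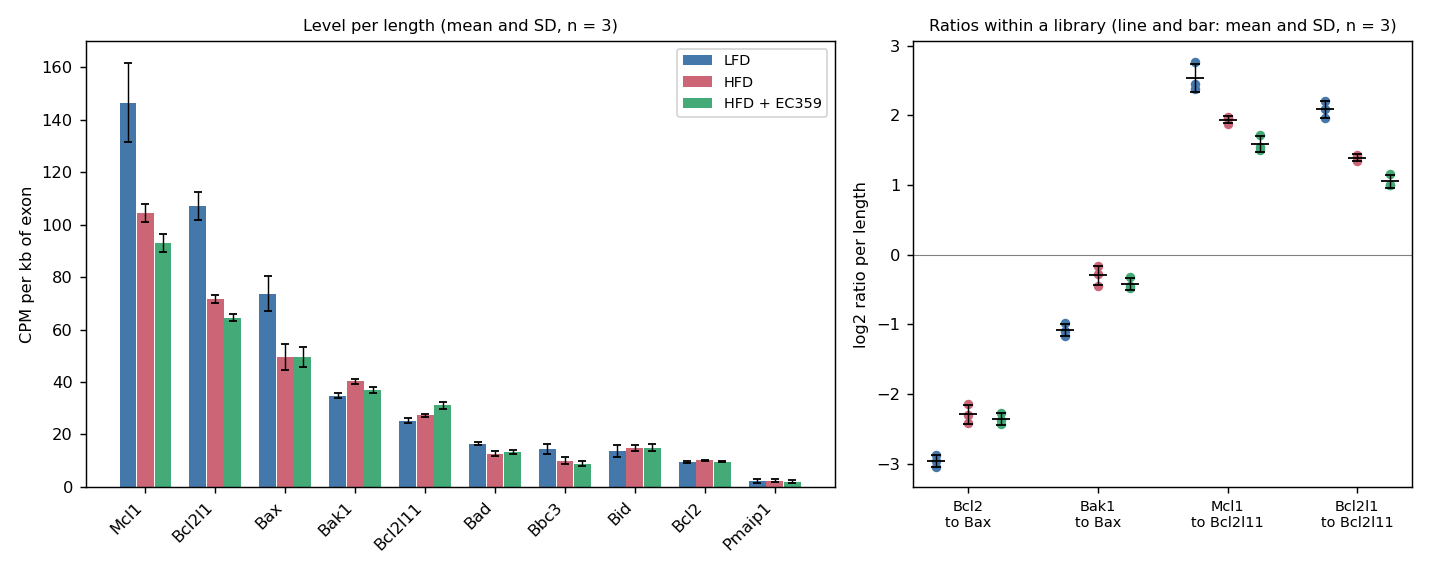
Left, mean level per length (y axis, CPM per kb of exon, bars from 0, error bars SD of 3 libraries) of each gene (x axis) in the 3 groups. Right, log2 ratios per length of 4 pairs of genes in each library (points) with mean and SD. The Mcl1 to Bcl2l11 and Bcl2l1 to Bcl2l11 ratios step down over the 3 groups, and the Bak1 to Bax and Bcl2 to Bax ratios are higher in both high-fat groups than with LFD.

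Of 14 other genes of the family, 9 were tested. With HFD, 3 rose and 2 fell, and with EC359 1 rose and 1 fell. For this list and those below, the shares over all tested genes were 26% higher and 25.8% lower with HFD. With EC359 they were 12.7% and 13.9%. Bok, a relative of Bax, went from 147, 124 and 143 CPM in the LFD libraries to 78.2, 72.2 and 79.4 CPM with HFD and 64.7, 59.2 and 66.6 CPM with HFD + EC359. It fell by 0.84 with HFD (adjusted p = 3.52e-13) and by 0.27 with EC359 (adjusted p = 0.00159). Bmf, a BH3-only gene, rose from 15.7, 16.9 and 16.7 CPM to 23.7, 23.6 and 21.9 CPM with HFD and 34.0, 28.9 and 31.7 CPM with HFD + EC359, by 0.48 and 0.45 (adjusted p = 0.0005 and 0.000285). With the trend removed Bok was at -0.56 and -0.22 and Bmf at 0.57 and 0.46, all called. The survival gene Bcl2a1b had 3, 4 and 8 counts in the LFD libraries and 23 to 41 elsewhere, a log2 fold change of 2.08 with HFD (adjusted p = 1.68e-05), but it shares sequence with Bcl2a1a and Bcl2a1d, and reads may be split among them. Bnip3l and Bnip3, mitophagy receptors, differed by 0.12 and -0.04 with HFD, neither called, but both were called lower with the trend removed, at -0.19 and -0.34. Bik, Hrk, Bcl2l14 and Bcl2l15 were too low to test, and Bcl2l10 was at 0 counts in every library.

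Downstream of the mitochondrion, 2 of 14 genes of the apoptosome, the caspases and the mitochondrial factors rose with HFD and 3 fell, with 0 higher and 3 lower with EC359. Endog, a mitochondrial nuclease, fell by 0.63 with HFD (adjusted p = 0.000224) and by 0.39 with EC359 (adjusted p = 0.0388), and was at -0.32 and -0.31 without a call once the GC and length trend was removed. The channel gene Vdac1 fell by 0.12 and by 0.20, and Vdac2 rose by 0.14 with HFD but was at -0.04 with the trend removed.

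Of 5 inhibitors of apoptosis, 2 rose with HFD and 0 fell, and 1 rose and 1 fell with EC359. Birc6, the most abundant of them, rose from 385, 438 and 443 CPM to 532, 544 and 552 CPM with HFD and 611, 615 and 615 CPM with HFD + EC359, by 0.36 (adjusted p = 4.64e-09) and 0.18 (adjusted p = 0.000557), and by 0.14 and 0.10 with the trend removed. Birc5, which encodes survivin and is made by dividing cells, fell by 0.41 with EC359 (adjusted p = 1.08e-05), from 68.6, 61.0 and 66.2 CPM to 45.6, 50.5 and 50.8 CPM. Xiap, an inhibitor of caspases, was 0.15 higher with HFD (adjusted p = 0.017) as fitted, and -0.29, called lower, with the trend removed. Its direction therefore depended on that step.

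In the death receptor pathway, 1 of 12 tested genes rose and 3 fell with HFD, and 1 rose and 0 fell with EC359. The adaptor Tradd fell by 0.59 with HFD (adjusted p = 9.69e-06) and the receptor Tnfrsf1a by 0.23 (adjusted p = 6.76e-05). Casp8, which cleaves Bid, fell by 0.18 (adjusted p = 0.0292). With the trend removed Tradd (-0.32) and Casp8 (-0.28) were still called lower and Tnfrsf1a was at -0.04. Tnf rose by 0.61 with EC359 (adjusted p = 0.0325) from a low level of 3.38 ± 0.808 CPM to 5.2 ± 0.427 CPM (SD, n = 3), and lost its call with the trend removed (adjusted p = 0.0537). Tnfsf10, the gene of the death ligand TRAIL, was called in HFD + EC359 against LFD alone, at 0.70 (adjusted p = 0.0133). It lost this call with the trend removed, at 0.33 (adjusted p = 0.256).

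Of p53 and its targets, 0 of 12 tested genes rose with HFD and 2 fell, and 3 rose and 2 fell with EC359. Trp53 itself was at -0.06 with HFD and 0.04 with EC359, and Mdm2 at -0.01 and -0.08, none of them called, although Mdm2 was called lower with HFD at -0.15 with the trend removed. Cdkn1a, the cell cycle inhibitor p21, fell by 0.57 with HFD (adjusted p = 1.79e-07). Phlda3, an inhibitor of Akt, fell by 0.41 with EC359 (adjusted p = 4.13e-05). Perp had 64.8, 64.6 and 70.1 CPM with LFD, 10.1, 10.1 and 8.03 CPM with HFD, and 45.7, 50 and 45.7 CPM with HFD + EC359. Perp also encodes a desmosomal protein of the epidermis, and its log2 fold changes of -2.82 and 2.32 ran beside those of the epidermis markers, whose medians were -1.24 and 1.66. The 4 tested epithelial genes of the 4T1 line moved in the same directions, with medians of -1.50 and 0.93. A link of Perp with either list was not tested.

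Of 15 genes that regulate the members, 3 rose and 7 fell with HFD, and 2 rose and 4 fell with EC359. Over all tested genes 51.8% and 26.6% were called in these 2 comparisons. Akt1, whose kinase phosphorylates Bad, went from 754, 692 and 713 CPM with LFD to 517, 523 and 530 CPM with HFD and 452, 473 and 446 CPM with HFD + EC359, and fell by 0.46 (adjusted p = 1.89e-12) and by 0.20 (adjusted p = 7.14e-05). Pim1, a STAT3 target whose kinase also acts on Bad, fell by 0.50 (adjusted p = 3.23e-08) and by 0.25 (adjusted p = 0.00208). Huwe1, a ubiquitin ligase for Mcl1, rose by 0.23 (adjusted p = 2.77e-06) and by 0.17 (adjusted p = 0.000284). With the trend removed Akt1, Pim1 and Huwe1 were called in the same directions in both comparisons, at -0.19 and -0.12, -0.26 and -0.22, and 0.09 and 0.13. Ywhaz, a 14-3-3 protein that holds phosphorylated Bad, was at 0.02 and -0.04 without a call, and at -0.18 and -0.10, both called, with the trend removed. Trp73 rested on 6, 20 and 8 counts with LFD, 1, 0 and 4 with HFD, and 13, 1 and 8 with HFD + EC359.

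The medians of the 6 lists stayed close to 0, as did those of all tested genes (0.007 with HFD and 0.006 with EC359). With HFD and with EC359 in turn they were 0.12 and 0.05 for the other family genes, -0.04 and -0.11 for the apoptosome and caspases, -0.02 and 0.14 for the inhibitors of apoptosis, -0.02 and 0.04 for the death receptor pathway, -0.05 and 0.02 for p53 and its targets, and -0.11 and -0.06 for the regulators. The small counts depended on the settings. Without LFD replicate 1, the counts higher and lower with HFD became 3 and 1 for the other family genes, 0 and 4 for the apoptosome and caspases, and 1 and 0 for the inhibitors. With the GC and length trend removed they became 2 and 3, 0 and 6, and 1 and 3 for these lists, 0 and 4 for the death receptor pathway, 0 and 4 for p53 and its targets, and 2 and 5 for the regulators. With EC359 and the trend removed, the counts higher and lower came to 1 and 2 for the other family genes, 0 and 6 for the apoptosome and caspases, 1 and 1 for the inhibitors, 2 and 2 for p53 and its targets and 1 and 5 for the regulators, and the single call in the death receptor pathway, that of Tnf, was lost. The shares of all tested genes called with the trend removed are not given here, so no direction of a list is read from these counts.

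**Figure D5:**
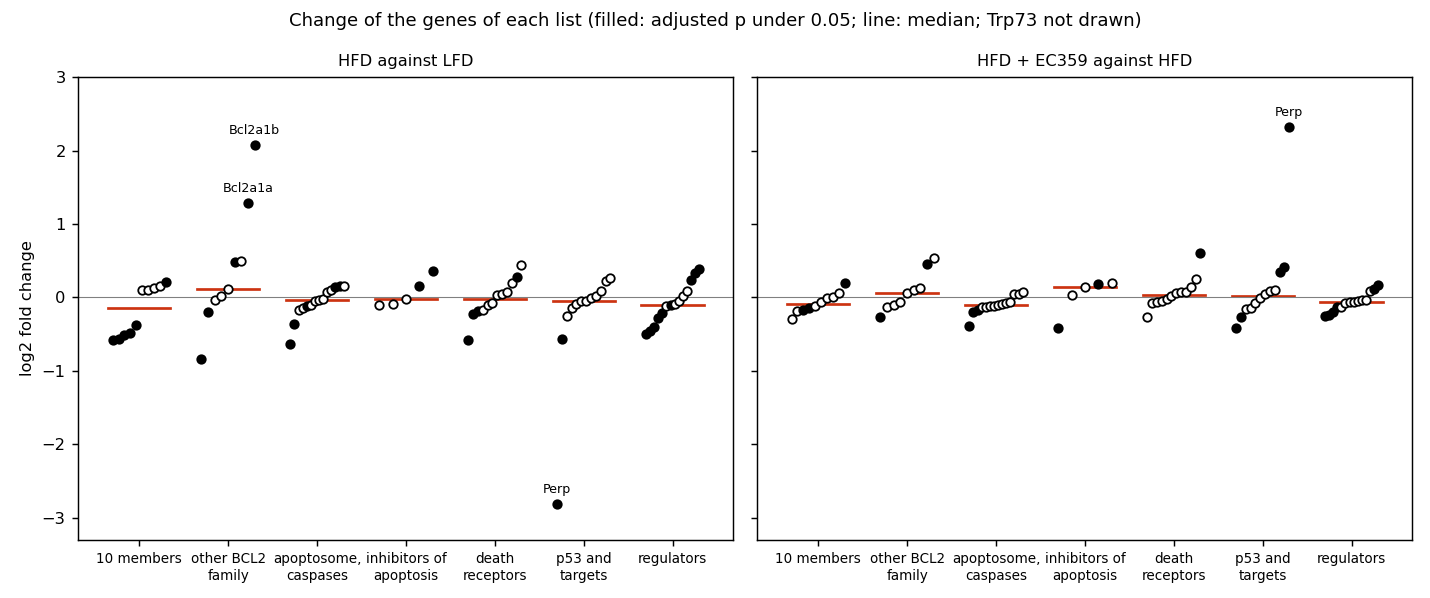
Log2 fold change (y axis) of the 10 genes and of the genes of 6 lists (x axis) with HFD and with EC359. Each point is a gene, filled where the adjusted p was under 0.05, and the line is the median of the genes drawn. Most points lie within 1 of 0 on the log2 scale, Perp falls with HFD and rises with EC359, and Trp73 is not drawn because 1 library held 0 counts.

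Markers of other cell types moved with the groups, and their part in the changes of the BCL2 family was not tested. Summed over 9 epidermis genes, levels were 1136 to 1304 CPM in the LFD libraries, 184 to 198 CPM in the HFD libraries and 552 to 562 CPM in the HFD + EC359 libraries, with 7 of 9 called lower with HFD and 8 of 9 called higher with EC359. With LFD most of that sum was Krt14 and Krt5, at 761 and 252 CPM on average. Krt10 had means of 52.5, 54.5 and 52.7 CPM in LFD, HFD and HFD + EC359 and was not called, so the sum mainly follows those keratins. The 5 fibroblast genes summed to 5994 to 7295 CPM, 10269 to 10830 CPM and 2895 to 2974 CPM in the same order. Most of that sum was the collagen genes Col1a1 and Col1a2, at 6862 and 3259 CPM on average with HFD. All 5 were called higher with HFD, whereas with EC359 3 were called lower, Pdgfra was called higher (0.34) and Dcn was not called (-0.12). The 5 epithelial genes of the 4T1 line summed to 1113 to 1134 CPM with LFD, 703 to 713 CPM with HFD and 762 to 790 CPM with HFD + EC359. The 4 tested ones were all called lower with HFD, and 3 of them were called higher with EC359. Mcl1, Bcl2l1 and the epidermis sum were all lower in HFD than in LFD. Both genes were lower in HFD + EC359 than in HFD and the sum was higher, and a link was not tested. The 5 macrophage genes summed to 1154 to 1204, 1021 to 1042 and 1260 to 1293 CPM. With HFD the abundant Mrc1 (-0.36) and Cd163 (-0.52) were called lower and the other 3, Cd68 (0.47), Csf1r (0.15) and Emr1 (0.47), higher, so that the median of the list was 0.15 while its sum was lower. With EC359 4 of the 5 were called higher. The 4 neutrophil genes summed to 97.9 to 118, 124 to 135 and 158 to 164 CPM. Of them, 2 were called higher with HFD and 4 with EC359. Endothelial genes reached 154 to 166, 303 to 326 and 266 to 277 CPM. Lymphocyte genes summed to at most 10.1 CPM and adipocyte genes to at most 25.6 CPM in any library, and muscle genes to 64.8 to 121 CPM.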

How the data were processed

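Stranded mRNA libraries of 150 bp read pairs were analysed from 4T1 tumors, 9 in all, 3 per group, grouped by the diet and treatment in the labels. The authors deposited expected counts per gene without normalization, made with featureCounts 1.5.0-p1 on an mm9 annotation, with pairs on more than 1 gene or position counted in fractions, a minimum mapping quality of 2, and reverse strand. The labels name HISAT2 2.1.0 and the paper's methods name TopHat2 and HTSeq, so the aligner is uncertain. Fractions were present in 1.19% to 3.55% of genes per library, and expected counts were rounded to whole numbers. Splitting shared reads makes values of near-identical genes uncertain.

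Genes were filtered with filterByExpr and scaled with TMM factors in edgeR 4.0.16 (R 4.3.3). All 9 libraries were fitted in 1 quasi-likelihood model of the 3 groups, and p-values were adjusted by the Benjamini-Hochberg method over 13366 genes. A call is an adjusted p under 0.05 at any fold change. The biological coefficient of variation was 3.63%. Level values are CPM on TMM-scaled totals, also per kb of exon. Alternatives were RLE factors, library totals, a filter at 1 count in total, a filter at 10 counts per library, DESeq2 1.42.0, limma 3.58.1 (voom), the 6 libraries of a comparison, a replicate block, each library left out, the GC and length trend removed (splines with 5 degrees of freedom on mm9 sequence), and the study's threshold. The steps were tested on simulated data.

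Named genes were the 10 members and, from each list, the 3 with the highest mean CPM and the called gene with the largest change per comparison. For the 3 members with the largest range of group means, the 3 genes with the highest correlation were also named. A gene that this rule names is not reported here. The members, lists and markers were chosen with earlier results of these data known. The labels name no batch. Promoter windows from RefSeq (GRCm38.p6) matched 9 members, and that of Pmaip1 is not used here.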

Additional observations from a re-analysis of the deposited data

How the results depend on the processing

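Of the values of the members over the alternatives, 512 kept direction and side of the threshold. With the same sign, 7 lost a call and 6 gained one, and 15 changed sign. Among those that changed sign, Bad also lost its call and Bcl2 gained one, in HFD + EC359 against LFD with the trend removed. Depth limits Pmaip1 most, at 20 to 58 counts per library. The replicate numbers did not pair the libraries (correlations of deviations between -0.03 and 0.03), and with the replicate block Mcl1 was at -0.48 and Bcl2l1 at -0.58 for HFD against LFD and no member's call changed. Fits with fewer libraries show only how calls vary with the libraries used, and causes were not tested.

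For HFD against LFD, 3 members were called lower with the GC and length trend removed, and 3 higher on library totals, where Bcl2 (0.14) and Bcl2l11 (0.15) gained calls. For HFD + EC359 against LFD, 2 were higher on library totals (Bak1 at 0.17) and 2 with the trend removed. Under the study's threshold 0 members passed in any comparison, and 763, 459 and 680 genes did. With each library left out in turn, the members higher and lower were 1 to 2 and 5 to 5 for HFD against LFD, 1 to 1 and 0 to 2 for HFD + EC359 against HFD, and 1 to 2 and 5 to 5 for HFD + EC359 against LFD. All genes called were then 6215 to 6825, 2720 to 4204 and 7088 to 7719. Bcl2l11 gained a call with HFD without LFD replicate 2 (0.13), Bid in HFD + EC359 against LFD without LFD replicate 1 (0.25), and the count of 0 came without HFD replicate 1 or HFD + EC359 replicate 3.

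Signs changed for values near 0 or with the GC and length trend removed. For HFD against LFD this trend removal gave Bcl2 (-0.086), Pmaip1 (-0.16), Bnip3l (-0.19), Cflar (-0.24), Phlda3 (0.16), Trp53 (0.075), Vdac2 (-0.043), Xiap (-0.29) and Ywhaz (-0.18). In HFD + EC359 against HFD it gave Bid (-0.042), Bcl2a1b (-0.055), Bnip3l (-0.057), Tradd (0.0062) and Xiap (-0.090), and in HFD + EC359 against LFD Bcl2 (-0.17) and Bad (0.024). Library totals turned Bnip3 (0.0065) and Mdm2 (0.036) with HFD and Bax (0.029) and Tradd (0.014) with EC359, the filter at 1 count turned Mdm2 (0.00087), and RLE factors and DESeq2 turned Bid (-0.0027 and -0.0050). With single libraries left out, ranges that crossed 0 with HFD were -0.075 to 0.0066 for Bnip3, -0.00012 to 0.051 for Ywhaz, -0.11 to 0.41 for Pmaip1, -0.060 to 0.027 for Mdm2 and -0.31 to 0.022 for Tnf. With EC359 they were -0.081 to 0.065 for Bax, -0.079 to 0.043 for Bid, -0.062 to 0.21 for Bcl2a1b and -0.13 to 0.050 for Tradd, and in HFD + EC359 against LFD -0.40 to 0.12 for Pmaip1.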

Other observations

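Over the 9 libraries, Bcl2l1 and Mcl1 had the highest correlation of log2 CPM among the pairs of members (Pearson's r = 0.981), and Mcl1 and Bcl2l11 the lowest (r = -0.890), while Bcl2 and Bak1 stood at 0.895. These are descriptions without a test, and the points share the group differences, depth and GC tilt of the libraries. The genes with the pattern most like that of Bcl2l1 were Plec (r = 0.997), a linker of the cytoskeleton, Pkm2 (r = 0.997), the glycolytic enzyme pyruvate kinase, and Sun2 (r = 0.997), a protein of the nuclear envelope. For Mcl1 they were Rps6 (r = 0.997), a ribosomal protein, Ankrd54 (r = 0.996) and Dirc2 (r = 0.995), and for Bbc3 Snord55 (r = 0.985), Mcm7 (r = 0.982), a subunit of the replicative helicase, and Ncln (r = 0.980). Such likeness is common in these libraries: of 13365 other genes, 1668 exceeded 0.9 with Bcl2l1, 1593 with Mcl1 and 768 with Bbc3.

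Against LFD, the other gene lists had more calls with HFD + EC359 than with HFD, in comparisons that share the LFD libraries, and so did all tested genes, of which 58.3% were called against 51.8%. Of the 9 tested other family genes 4 were higher and 3 lower, of 14 genes of the apoptosome and caspases 1 was higher and 6 lower, and of 15 regulators 3 were higher and 9 lower. Endog was at -1.03 (standard error 0.139, adjusted p = 1.36e-07), Birc6 at 0.54 (adjusted p = 2.57e-13) and Cdkn1a at -0.71 (adjusted p = 1.25e-09) in edgeR's quasi-likelihood test. With the GC and length trend removed these came to -0.63, 0.25 and -0.58, each still called.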
